A study of Mus musculus with 6 samples.

Results

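The MYC, MAX and MXD network is a small set of basic helix-loop-helix leucine zipper transcription factors, and its 10 members were taken here by gene symbol from the 55341 symbols of the count tables: Myc, Mycn, Mycl, Max, Mxd1, Mxd3, Mxd4, Mxi1, Mnt and Mga. All 10 had enough counts to be tested. RNA-seq libraries came from mouse cultures of cerebellar granule neurons (CGNs), which are made by purifying granule neuron precursors on a Percoll gradient from cerebella of CD1-IGS mice at P6 to P8. In 3 libraries the cultures had received DMSO, the vehicle, and in 3 libraries they had received GSK-126, an inhibitor of the histone methyltransferase EZH2, at day in vitro (DIV) 3. Per the study's methods, each replicate is the pooled cells of mouse litters, all cultures received AraC at DIV2 to block division of non-neuronal cells, and RNA was collected at DIV5, whereas the labels name cerebellum and DIV3. No genotype or transgene was involved, and the dose given at DIV3 is not stated in the sources used here.

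The proteins of this network act as pairs. MYC, MYCN and MYCL bind E-box DNA as dimers with MAX and raise transcription of genes for growth, ribosome production and metabolism, while MXD1, MXD3, MXD4, MXI1 and MNT compete for MAX and repress through the SIN3 and histone deacetylase corepressor. MGA also dimerizes with MAX and belongs to a variant Polycomb complex, PRC1.6. In the cerebellum, Mycn is induced by Sonic hedgehog and sustains the division of granule neuron precursors, and MXD proteins are best known for rising as cells leave the cell cycle, apart from Mxd3, which is used by dividing precursors.

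Counts on genes ranged from 7407189 to 13092763 per library, and the members had between 104 and 3249 counts per library. Libraries with the same replicate number deviated together from their group means, with correlations across genes of 0.47 to 0.61 between the groups. For different numbers the correlations were 0.00096 or less, which taking deviations from group means partly fixes in advance. Differences were fitted within pairs of the same number. In a principal component analysis the first axis, which held 45.5% of the variance, set replicate 2 of both groups apart. Granule neuron markers were high, with a summed CPM (counts scaled to library size and TMM factors) of 4130 to 6260 over 8 markers with DMSO and 3345 to 5134 with GSK-126, whereas Atoh1, the marker of precursors, was too low to test. The cultures also held RNA of other cells, since 6 astroglial markers summed to 2172 to 7456 CPM and were lowest in replicate 2 of both groups. In such bulk RNA, fewer cells of a type and less RNA per cell cannot be told apart.

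Levels were compared between genes only per length, as CPM per kilobase of merged exon. In this unit Mxd4 was the most abundant member with DMSO, at 32.9 ± 2.7 (SD, n = 3), followed by Max at 22.4 ± 1.02 and Mxi1 at 19.4 ± 2.89. Mxd3 (11.8 ± 3.81), Mga (11.3 ± 1.74) and Mnt (10.8 ± 0.429) formed a middle group whose libraries overlapped. The 3 MYC genes were low, with Myc at 5.85 ± 0.536, Mycl at 5.73 ± 0.262 and Mycn at 4.49 ± 1.35, and Mxd1 was lowest at 4.19 ± 0.837. Along this order the libraries of neighbours did not overlap between Mxd4 and Max, between Mxi1 and Mxd3 and between Mnt and Myc, and all other neighbours overlapped. With GSK-126, Mxd4 was again highest (27.5 ± 1.74) and Mxd1 again lowest (3.44 ± 1.13), and Mycn (6.17 ± 0.790) stood above Mycl (5.22 ± 1.21) in the order of means. The length used is that of all annotated exons together, which can exceed that of the transcript these cells make.

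**Figure D1:**
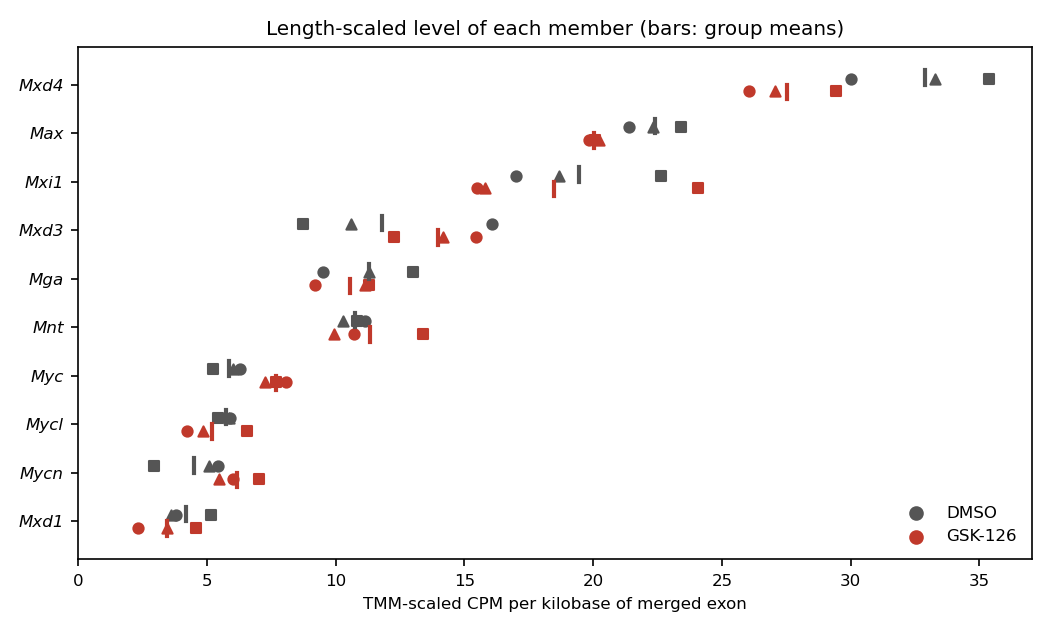
Length-scaled level of the 10 members in each library, as TMM-scaled CPM per kilobase of merged exon (horizontal axis), with DMSO in grey and GSK-126 in red, pairs 1, 2 and 3 as circles, squares and triangles, and vertical bars at the group means. Mxd4, Max and Mxi1 lay above the other members in every library, and the MYC genes and Mxd1 lay at the bottom.

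Mxd4, which encodes a MAX partner that represses E-box genes, was the one member whose difference passed the test. It lies on the minus strand of chromosome 5 (ENSMUSG00000037235.13, 34173883 to 34187720, GRCm38). Its level was 254.7, 300.2 and 282.4 CPM in DMSO replicates 1, 2 and 3, and 220.9, 249.8 and 229.6 CPM in the GSK-126 libraries of the same numbers. All 3 GSK-126 libraries were below all 3 DMSO libraries, and the pairs differed by -0.21, -0.27 and -0.30 on the log2 scale. In the paired fit Mxd4 fell by 0.26 on the log2 scale (SE 0.070, edgeR quasi-likelihood test, Benjamini-Hochberg adjusted p = 0.0267). Of all 16729 genes tested, 5.09% were called lower in this fit and 8.44% in either direction, so 1 call lower among 10 members, with 0 higher, is near that background. The call needed the pairing and all 3 pairs, since the adjusted p was 0.953 without the block and between 0.0600 and 0.150 with any 1 pair left out (edgeR, Benjamini-Hochberg). Scaling by total counts or upper quartiles moved it to 0.0537 and 0.0523 (edgeR, Benjamini-Hochberg), with fitted differences of -0.22. Of the exons of Mxd4, 514 bp (6.06%) overlap the antisense gene Gm42846, which also fell by 0.41 on the log2 scale (edgeR, Benjamini-Hochberg adjusted p = 0.00810) from 66.8 ± 5.06 to 50.3 ± 5.39 CPM (SD, n = 3 each), and without a stated strand setting their reads cannot be told apart there.

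Max encodes the shared partner of every other protein in the network. Its levels were 76.9, 84.3 and 80.4 CPM with DMSO and 71.3, 72.3 and 72.8 CPM with GSK-126. The 2 groups did not overlap, and Max was lower with GSK-126 in each pair, but its fitted difference of -0.16 (SE 0.086) did not pass (edgeR, Benjamini-Hochberg adjusted p = 0.302).

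Myc, the founding member of the family, had 17.1, 14.3 and 16.3 CPM with DMSO and 21.9, 20.9 and 19.8 CPM with GSK-126. Every GSK-126 library was above every DMSO library, and the pair differences were 0.36, 0.55 and 0.27 on the log2 scale. The fitted difference for Myc was 0.39 (SE 0.15) and was not called (edgeR, Benjamini-Hochberg adjusted p = 0.112). Leaving out 1 pair at a time gave differences between 0.32 and 0.45, none of them called. Myc (ENSMUSG00000022346.15) lies on the plus strand of chromosome 15, from 61985391 to 61990374.

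Mycn, the member tied to precursor division, was measured at 17.9, 9.70 and 16.8 CPM with DMSO and at 19.8, 23.2 and 18.0 CPM with GSK-126. The groups again did not overlap, but only narrowly, with 17.9 CPM in DMSO replicate 1 and 18.0 CPM in GSK-126 replicate 3. The difference between the groups came mostly from pair 2, where the log2 difference was 1.26 against 0.15 and 0.10 in pairs 1 and 3. DMSO replicate 2 was the lowest library for Mycn and GSK-126 replicate 2 the highest. The fitted difference was 0.49 (SE 0.19, edgeR, Benjamini-Hochberg adjusted p = 0.135). It was 0.13 without pair 2 and not called, while leaving out pair 1 or pair 3 gave 0.68 in both cases and a call (Benjamini-Hochberg adjusted p of 0.0236 and 0.0217 from edgeR). Among the other fits, Mycn was also called when no filter on low counts was used (0.50, edgeR, Benjamini-Hochberg adjusted p = 0.0362).

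Mycl, the third MYC gene, had levels of 21.9 to 23.8 CPM with DMSO and a wider 17.1 to 26.5 CPM with GSK-126, with pair differences of -0.48, 0.27 and -0.27. Its fitted difference was -0.15 (SE 0.15, edgeR, Benjamini-Hochberg adjusted p = 0.618). On the length-scaled levels, Mycl made up 36.0% ± 3.41 of the RNA of the 3 MYC genes with DMSO and 27.2% ± 3.89 with GSK-126 (SD, n = 3 each). The shares were 33.4%, 39.8% and 34.6% against 23.1%, 30.8% and 27.6%, so those of the groups did not overlap.

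Of the remaining repressor genes, Mxd1 and Mxd3 differed most between the groups, and neither was called. Mxd1, which encodes the first MAD protein described, had 26.9, 36.5 and 25.6 CPM with DMSO and 16.4, 32.3 and 24.3 CPM with GSK-126. It was lower with GSK-126 in each pair, but by 0.72 on the log2 scale in pair 1 and by only 0.17 and 0.077 in the others (fitted difference -0.32, SE 0.14, edgeR, Benjamini-Hochberg adjusted p = 0.189), and without pair 1 the fitted difference was -0.11. Mxd3, the MXD gene of dividing precursors, had 38.1, 20.7 and 25.1 CPM with DMSO and 36.6, 29.1 and 33.5 CPM with GSK-126. It was higher in pairs 2 and 3 and slightly lower in pair 1 (fitted difference 0.27, SE 0.13, edgeR, Benjamini-Hochberg adjusted p = 0.237), and 105 bp (4.43%) of its exons overlap Prelid1 on the opposite strand.

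Mxi1, Mnt and Mga showed the smallest differences. Mxi1 ranged from 115.9 to 154.4 CPM with DMSO and from 105.8 to 164.2 CPM with GSK-126. Mnt, the broadly expressed MAX partner, ranged from 47.6 to 51.6 and from 45.9 to 61.9 CPM. Mga ranged from 146.0 to 199.4 and from 141.2 to 173.4 CPM. Their fitted differences were -0.09 for Mxi1 (SE 0.082), 0.07 for Mnt (SE 0.11) and -0.09 for Mga (SE 0.075), with Benjamini-Hochberg adjusted p of 0.573, 0.770 and 0.534 (edgeR). The annotation places 194 bp (2.84%) of the exons of Mxi1 over Gm10197 on the opposite strand.

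**Figure D2:**
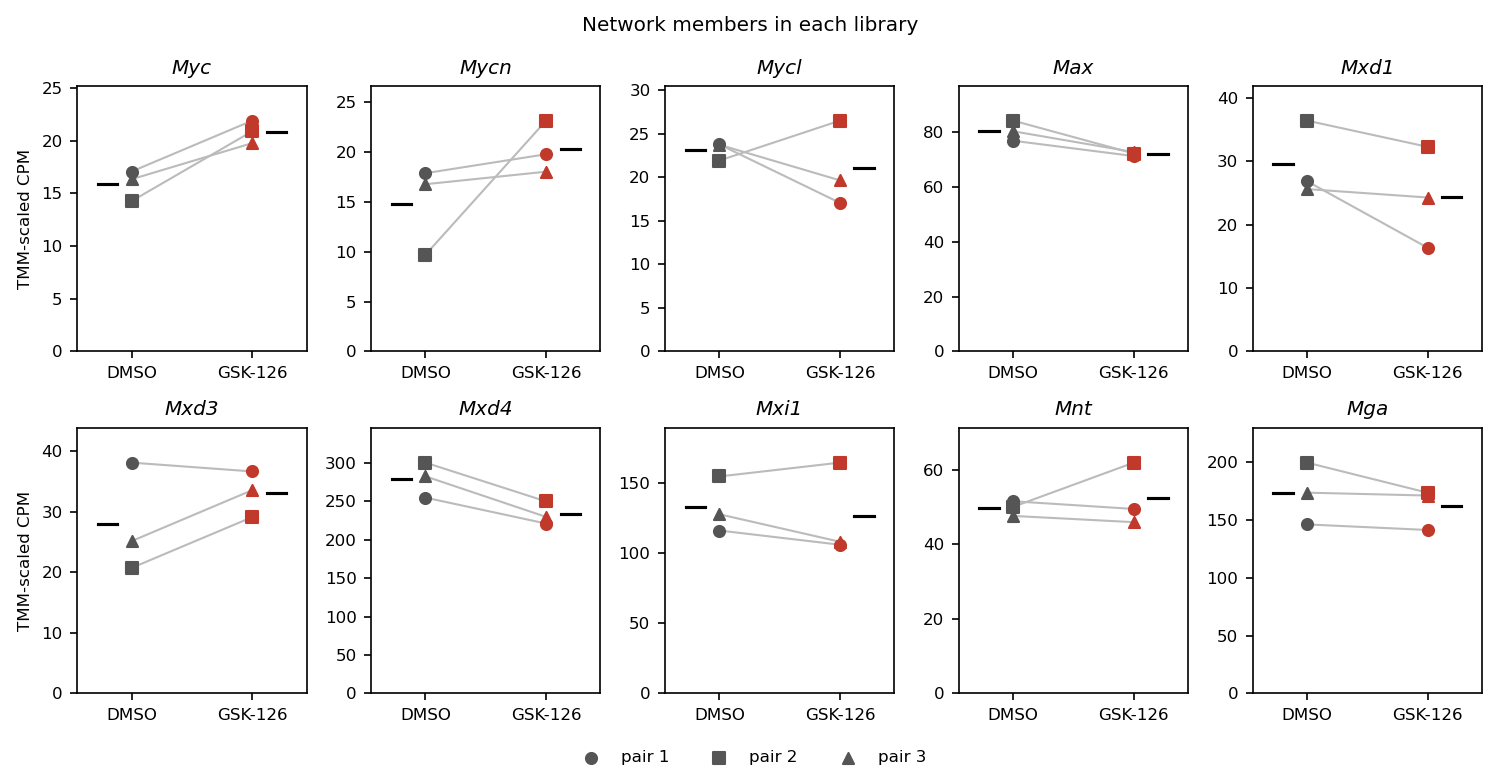
TMM-scaled CPM (vertical axis, from 0) of each member in the 3 DMSO (grey) and 3 GSK-126 (red) libraries, with lines joining the libraries of a pair and short black bars at the group means. The groups did not overlap for Myc, Mycn, Max and Mxd4, and for Mycn the line of pair 2 was the steepest.

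Over the whole network, 4 of 10 members had groups that did not overlap, 2 higher with GSK-126 (Myc and, narrowly, Mycn) and 2 lower (Max and Mxd4). Of all genes tested, 9.44% did not overlap in either direction. In 6 members all 3 pairs differed in one direction, as did 42.3% of all genes tested. The median of the members' fitted differences was -0.09 on the log2 scale, beside -0.0056 for all genes tested, and 4 of the members were at an unadjusted p under 0.05 in the paired fit (Myc, Mycn, Mxd1 and Mxd4) against 1 without the block (Myc). In the paired fit 21.5% of all genes tested were at such a p.

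The MYC genes and the repressors can also be set against each other on the length-scaled levels. The summed level of Myc, Mycn and Mycl was 17.6, 13.6 and 17.0 CPM per kilobase with DMSO and 18.3, 21.3 and 17.6 with GSK-126. The summed level of Mxd1, Mxd3, Mxd4 and Mxi1 was 66.9, 71.9 and 66.2 with DMSO and 59.3, 70.4 and 60.5 with GSK-126. The ratio of the first sum to the second was 0.263, 0.189 and 0.256 with DMSO and 0.308, 0.302 and 0.291 with GSK-126. The ratios of the groups did not overlap, and the spread was smaller with GSK-126 (0.301 ± 0.00869) than with DMSO (0.236 ± 0.0408, SD, n = 3 each). These ratios describe RNA of genes chosen with results known and were not tested.

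**Figure D3:**
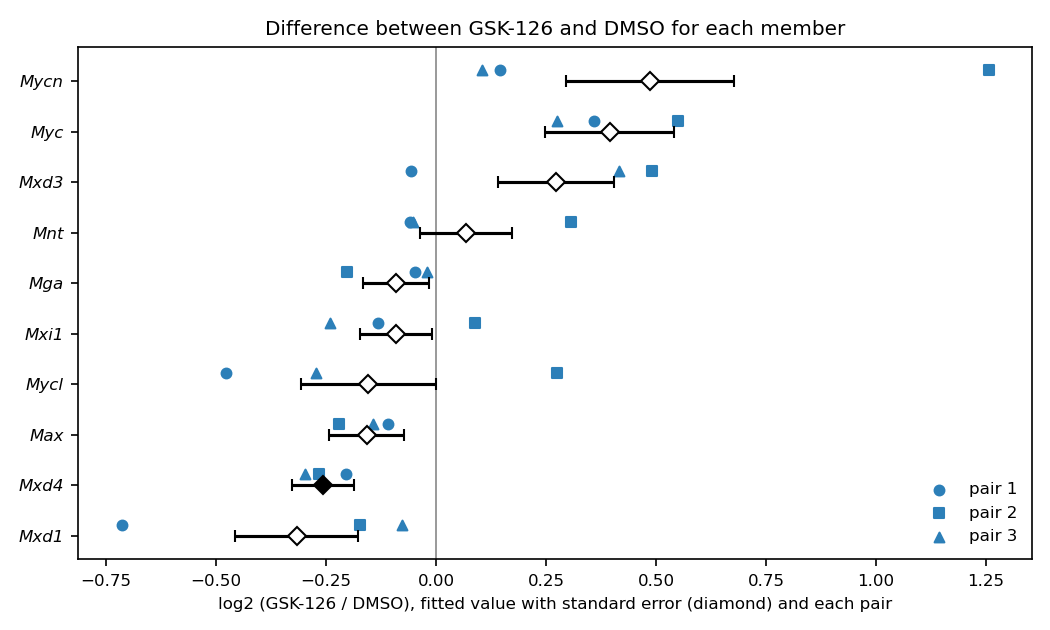
Difference between GSK-126 and DMSO for each member on the log2 scale (horizontal axis). Diamonds are the values fitted with the pairs, with bars of 1 standard error, filled where the adjusted p was under 0.05, and blue circles, squares and triangles are pairs 1, 2 and 3. The filled diamond is Mxd4 at -0.26, and the square of Mycn at 1.26 lies far from its other pairs.

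Several members differed more between replicates than between treatments. Replicate 2 had more Mxd1 than the mean of replicates 1 and 3 by 0.47 on the log2 scale with DMSO and by 0.69 with GSK-126, and more Mxi1 by 0.34 and 0.62. Mga, Mxd4, Max and Mnt were also higher in replicate 2 of both groups, Mnt by 0.015 with DMSO and 0.38 with GSK-126. For Mxd4 (0.16 and 0.15) and Max (0.0997 and 0.0042) these deviations were smaller in size than the fitted treatment differences of -0.26 and -0.16. Mxd3 was lower in replicate 2, by 0.58 with DMSO and 0.27 with GSK-126. For Mycn the deviation turned from -0.83 with DMSO to 0.29 with GSK-126. Over the same libraries, granule neuron markers were highest in replicate 2 (6260 CPM with DMSO and 5134 with GSK-126) and astroglial markers lowest (2292 and 2172 CPM), and the part of the culture's makeup in the members' levels was not tested.

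**Figure D4:**
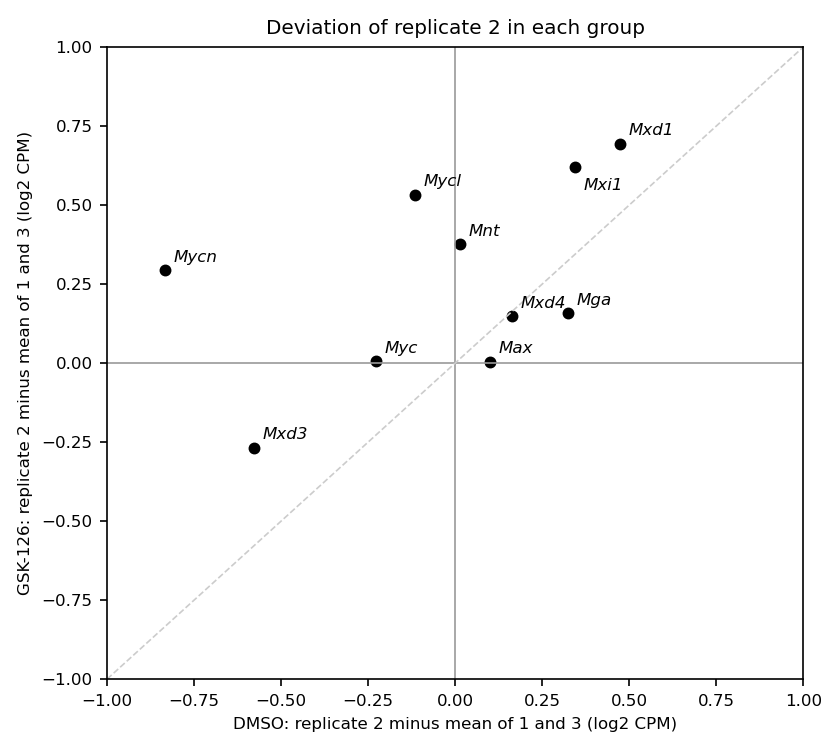
Log2 CPM of replicate 2 minus the mean of replicates 1 and 3 with DMSO (horizontal axis) and with GSK-126 (vertical axis), 1 point per member, with a dashed line where both are equal. Mxd1, Mxi1, Mga and Mxd4 lie in the upper right, with Max and Mnt close to an axis there. Mxd3 lies in the lower left, and Mycn in the upper left at -0.83 and 0.29.

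Promoter sequence was read in windows from 250 bases before to 50 bases after a RefSeq start site (build GRCm38.p6). Such windows were available for 9 of the 10 members, with 11 windows. Myc had no window and was not searched. The E-box CACGTG, the site that MYC and MXD dimers with MAX bind and which reads the same on both strands, occurred in the windows of Max, Mxd4 and Mnt. It occurred in 7.15% of all 32851 windows and, counted by gene, in 11.3% of tested genes with a window. The E2F core TTTGGCGC was searched on both strands and picked after the window of Mycn had been seen. It occurred in that window 2 times, in 0.514% of all windows and in 1.02% of tested genes with a window. The 2 motifs share no bases in these stretches. The stretches are shown because they belong to Max and Mxd4, both lower in every GSK-126 library than in any DMSO library, to Mnt, whose groups overlapped, and to Mycn, with capitals marking the motif. They lie on the minus strand at chr12:76962246-76962281 (Max), chr5:34187894-34187959 (Mxd4) and chr12:12941967-12942049 (Mycn), and on the plus strand at chr11:74830771-74830836 (Mnt).
Max: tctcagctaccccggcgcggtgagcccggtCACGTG
Mxd4: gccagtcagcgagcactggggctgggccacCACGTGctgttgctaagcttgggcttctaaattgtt
Mnt: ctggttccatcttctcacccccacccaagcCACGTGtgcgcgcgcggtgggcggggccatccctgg
Mycn: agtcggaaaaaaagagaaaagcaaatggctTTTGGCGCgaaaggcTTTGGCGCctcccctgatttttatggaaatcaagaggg
The first base of the motif lay 3 bases before the RefSeq start in Max, 219 in Mxd4 and 123 in Mnt, and in Mycn the first of the 2 copies began 183 bases before it. A match of letters is a description of the sequence and was not tested for binding.

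A list of 40 genes used as readouts of MYC covers ribosome production, translation, nucleotide and 1-carbon metabolism and the cell cycle. It was written from general knowledge with earlier results of these data known, so its counts are a description. In it, 7 rose with GSK-126 and 0 fell. In all genes tested, 3.35% were called higher. The median difference of the list was 0.15 on the log2 scale beside -0.0056 for all genes, and 37 of the 40 were above 0, where 49.1% of all genes were. In pairs 1, 2 and 3 taken alone, 38, 31 and 32 of the 40 were above 0, and the medians were 0.21, 0.14 and 0.13. Odc1, the rate-limiting enzyme of polyamine synthesis, went from 106, 96.0 and 108 CPM with DMSO to 152, 128 and 128 CPM with GSK-126, a rise of 0.39 (SE 0.081, edgeR, Benjamini-Hochberg adjusted p = 0.00347). Ccnd2, a D-type cyclin, rose by 0.41 (SE 0.080, edgeR, Benjamini-Hochberg adjusted p = 0.00222), from between 187 and 380 CPM to between 234 and 455. Its replicate 3 was high in both groups, and in fits without the pairing the difference was 0.084 without GSK-126 replicate 3 and 0.81 without DMSO replicate 3. The nucleolar chaperone gene Npm1 rose by 0.30 and the lactate dehydrogenase gene Ldha by 0.29 (edgeR, Benjamini-Hochberg adjusted p = 0.0102 and 0.0107). The calls of Odc1 (0.35) and Npm1 (0.30) were lost without pair 1, and that of Ldha without pair 2 (0.26) or pair 3 (0.28). The other 3 calls, named after their values were seen, were Fbl, Shmt1 and Hspe1. Without the block none of the 40 was called, and 4 were at an unadjusted p under 0.05. Without pair 1 the count was 2 (edgeR, paired fit). Beside this list, 2 of 8 tested genes of precursors and cycling cells rose. These were Pcna by 0.36 and the lineage gene Barhl1 by 0.33 (edgeR, Benjamini-Hochberg adjusted p = 0.0139 and 0.0492). Both calls were lost without pair 2, where the differences were 0.31 and 0.14. The cycling markers Mcm2 (0.29), Mcm5 (0.17), Mki67 (0.09), Top2a (0.0063), Cdk1 (0.06) and Ccnb1 (-0.17) were not called. Of the 8 tested genes, 7 were above 0. The summed level of the precursor and cycling markers was 385 to 526 CPM with DMSO and 449 to 592 with GSK-126. Their part in the result of the MYC targets was not tested.

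Genes that MYC represses in other cells did not move one way. Of 8 tested, 3 rose and 1 fell, where 3.35% and 5.09% of all genes tested did. The stress-response gene Ndrg1 rose by 0.59, the cyclin-dependent kinase inhibitor gene Cdkn2b by 0.78 and Cdkn1a, which encodes p21, by 0.31 (edgeR, Benjamini-Hochberg adjusted p = 0.000651, 0.0111 and 0.0405), while Ndrg4 fell by 0.32 on the log2 scale (0.00905 by the same test). The calls of Cdkn2b (0.43) and Ndrg4 (-0.23) were lost without pair 1, and that of Cdkn1a without pair 1 (0.28), without pair 2 (0.19), with DESeq2 and with limma-voom, while Cdkn1a was 0.47 without pair 3.

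Genes of proteins that work with the network were mostly not called, and the calls made were lower. Across all genes tested, 5.09% were called lower. In the MLX branch, a parallel set of factors whose MLX protein also pairs with some MXD proteins, Mlxip fell by 0.39 on the log2 scale (SE 0.093, edgeR, Benjamini-Hochberg adjusted p = 0.0107), 1 of 2 tested genes, a call lost without pair 2. Among 11 genes of the corepressors 0 rose, and Ncor1, a nuclear receptor corepressor gene, fell by 0.30 on the log2 scale (edgeR, Benjamini-Hochberg adjusted p = 0.0130). Without pair 2, Ncor1 was not called. The median of the corepressor list was -0.08. None of the 16 MYC cofactor genes was called, with the smallest p for Hcfc1 (-0.23, edgeR, Benjamini-Hochberg adjusted p = 0.0544) and Ep400 (-0.20, adjusted p = 0.136).

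Of 12 genes for the turnover of MYC proteins, 1 was called, beside 8.44% of all genes tested. Fbxw7, the substrate-binding subunit of the ubiquitin ligase that marks MYC and MYCN for destruction, had 140, 319 and 164 CPM with DMSO and 85.6, 185 and 118 CPM with GSK-126. It was lower with GSK-126 in each pair although the groups overlapped, because replicate 2 was high in both. Fbxw7 fell by 0.66 on the log2 scale (SE 0.080, edgeR, Benjamini-Hochberg adjusted p = 1.7e-05) and was called without any 1 pair, but not without the block, where the adjusted p was 0.953 (edgeR, Benjamini-Hochberg). In unpaired fits its difference was -0.23 once replicate 2 of the DMSO group was removed, and removing GSK-126 replicate 1 or 2 gave -0.44 and -1.01.

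Mga and Max also belong to PRC1.6, and none of its 11 other genes tested was called. The smallest p values were those of L3mbtl2 (-0.26, edgeR, Benjamini-Hochberg adjusted p = 0.190) and Ring1 (0.19, adjusted p = 0.540). Of 12 germline genes that this complex silences in other cells, 10 were too low to test, and Sycp3 (-0.04) and Stag3 (0.06) were not called.

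In the Hedgehog pathway, which drives Mycn in precursors, 8 of 11 genes could be tested, 0 rose and 2 fell. Among all genes tested, 5.09% were called lower. Ptch1, the Hedgehog receptor gene and itself a pathway target, fell by 0.46 on the log2 scale, and the coreceptor gene Boc fell by 0.41 (edgeR, Benjamini-Hochberg adjusted p = 0.00466 and 0.00178). The median of the 8 was 0.16, opposite in sign to both calls. The call of Ptch1 was lost without pair 2, where its difference was -0.27. Shh and Gli1 were too low to test.

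**Figure D5:**
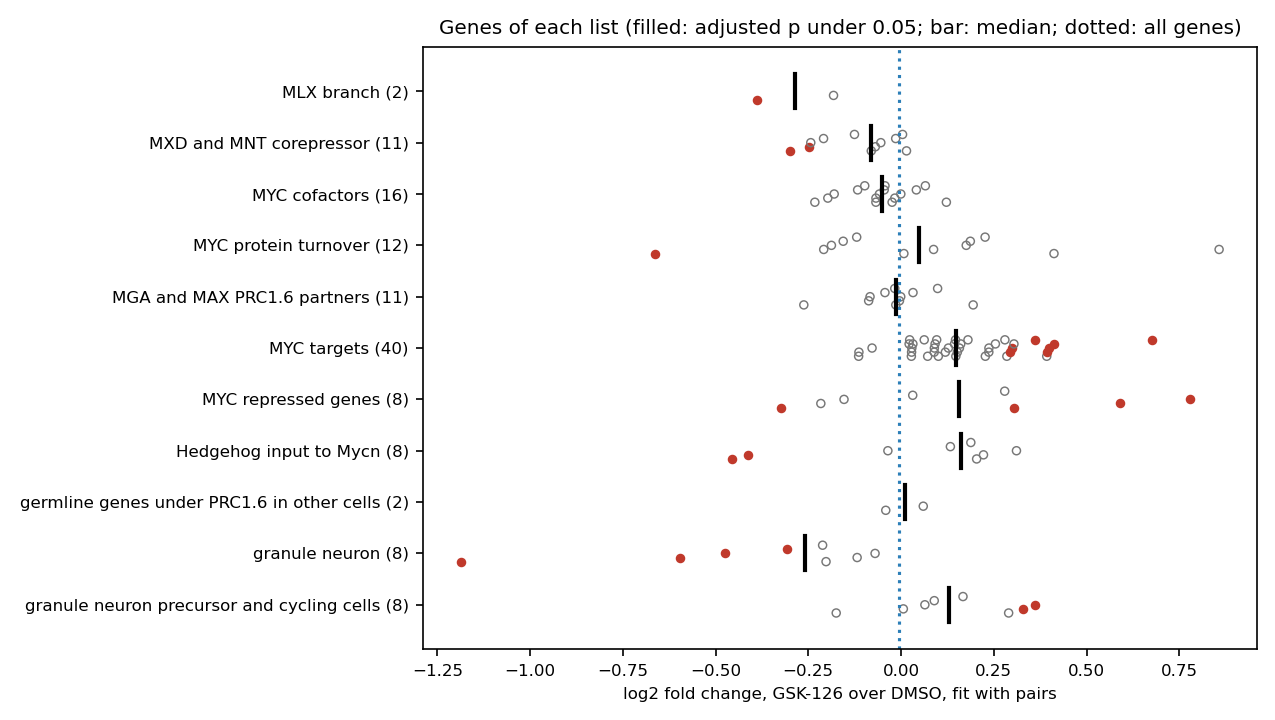
Log2 fold change of GSK-126 over DMSO (horizontal axis, paired fit) for the tested genes of each list, with the number tested in parentheses, filled points for genes with an adjusted p under 0.05, black bars for list medians and a dotted line at the median of all genes. The MYC targets lie mostly to the right of the line, with 7 filled points, and the granule neuron markers lie to its left, with 4.

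Markers of several cell types moved with these values. Over all genes tested, 3.35% were called higher and 5.09% lower. Of 8 granule neuron markers tested, 4 fell and 0 rose, led by Gabra6, a GABA receptor subunit of mature granule neurons, which fell by 1.19 on the log2 scale (edgeR, Benjamini-Hochberg adjusted p = 1.5e-07), and Neurod1, Rbfox3 and Zic1 also fell. Of 6 markers of Purkinje cells and interneurons, 2 were called lower and 0 higher. Gad1 fell by 0.32 and Gad2 by 0.52 on the log2 scale (edgeR, Benjamini-Hochberg adjusted p = 0.0163 and 0.0266). The call of Gad1 was lost without pair 1 or pair 3, and that of Gad2 with any 1 pair left out. Calb1 (0.45) and Pvalb (0.51) were above 0 and Pcp2 (-1.10) and Pax2 (-0.10) below it, none of them called. One marker was called higher in each of 3 lists of glia and vessels, with 0 called lower. These were S100b among 6 of astroglia (0.56), Mbp among 6 of the oligodendrocyte lineage (0.28) and Pdgfrb among 5 of vessels and fibroblasts (0.36). Their adjusted p-values were 0.00244, 0.0408 and 0.00459 (edgeR, Benjamini-Hochberg), and the call of Mbp was lost without pair 2. Not called and below 0 were Aqp4 (-0.15), Slc1a3 (-0.13) and Gja1 (-0.19) of astroglia and Olig1 (-0.05) and Pdgfra (-0.11) of the oligodendrocyte lineage. The 3 list medians were 0.0068, 0.17 and 0.16. Astroglial markers summed to 2292 to 7112 CPM with DMSO and 2172 to 7456 with GSK-126. None of 5 microglial markers was called. The summed levels with DMSO and with GSK-126 were 149 to 179 and 132 to 150 CPM for Purkinje cells and interneurons, 395 to 721 and 464 to 726 for oligodendrocytes, 80.6 to 139 and 96.0 to 158 for microglia and 2701 to 3978 and 3440 to 4237 for vessels and fibroblasts. The 5 genes whose log2 CPM over the 6 libraries was most like that of Mxd4, among 15054 genes compared, were Smap1, Gm26811, Sptan1, Hivep1 and Tubb4a, with Pearson correlations of 0.99 or more. That is a description over 6 libraries that share the treatment and the replicate differences, and the part of these cell types in the differences of the members was not tested.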

How the data were processed

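RNA-seq was analysed in 3 DMSO and 3 GSK-126 libraries, grouped and numbered by their titles. The authors trimmed reads with Trimmomatic 0.38, aligned them with STAR 2.7.2b and counted reads on exons with HTSeq against a GRCm38 Gencode annotation, and deposited raw counts per gene, with no normalization. The Gencode release and the strand setting are not given in the sources used here. The 55341 symbols all occur in GENCODE M21, which gave coordinates, exon lengths and overlaps. Lines that name no gene held 58.7% to 60.7% of the listed counts and were left out. No 2 libraries of a group agreed within sampling noise.

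Counts were tested in R 4.3.3 with edgeR 4.0.16 (TMM factors, filterByExpr, quasi-likelihood test) with the replicate number as a block, over 16729 genes, with calls where the p-value adjusted by Benjamini-Hochberg was under 0.05. Libraries were paired by the replicate number in their titles, and every same-numbered pair deviated together (0.54, 0.61 and 0.47). The biological coefficient of variation was 9.74% with the block and 24.0% without it. Standard errors were derived from the fitted difference and its test statistic. CPM is scaled by TMM. DESeq2 1.42.0, limma-voom (limma 3.58.1), other scalings, filters and left-out libraries were alternatives. The fit was tested on simulated data.

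The members, the gene lists and the naming rule were chosen with earlier results of these data known. All members are named, and from each list the called genes, at most 4 with the smallest p per direction, or the 2 with the smallest p where none was called. The results of 2 listed genes are not reported here. Replicates are separate pools of litters. In the paired fit, p-values set the difference between GSK-126 and DMSO against the variation left within pairs. That variation was estimated in part from all genes tested, so it is not a gene's own spread from pair to pair. Without the block, p-values set the difference against the spread between libraries of a group, estimated in the same way.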

Additional observations from a re-analysis of the deposited data

How the results depend on the processing

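Without the replicate block, which ignores the pairing of libraries, 0 members and 0 of the 40 MYC targets were called, and 0 genes in all (edgeR; smallest adjusted p 0.386, unadjusted p under 0.05 for 296 genes higher and 369 genes lower). DESeq2 without the block called 20 genes higher and 1 lower, with 0 members and 0 MYC targets, and DESeq2 with the block called 369 higher and 618 lower, with Mxd4 and 5 MYC targets among them. At an adjusted p under 0.01 there were 242 genes higher and 474 lower, 0 members and 2 MYC targets higher. Upper-quartile and total-count scaling called 0 members, and moved the share of calls that were higher from 39.7% to 51.0% and 50.2%. With no filter, 1 member, Mycn, was called higher. Leaving out pairs or, without the block, single libraries gave 0 to 558 genes higher and 0 to 719 lower, 0 to 1 members higher, 0 members lower and 0 to 6 MYC targets higher.

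Direction was kept by Myc, Mycn, Max, Mxd1, Mxd3 and Mxd4 under all alternatives tried. Over the fits with libraries left out, the log2 difference crossed 0 for Mycl (-0.37 to 0.024), Mxi1 (-0.29 to 0.052), Mnt (-0.053 to 0.16), Mga (-0.19 to 0.021), Ring1 (-0.00625 to 0.41), Cdkn1a (-0.061 to 0.77), Stag3 (-0.18 to 0.22), Sycp3 (-0.33 to 0.25), Mbp (-0.064 to 0.51) and Csf1r (-0.049 to 0.31). In the same fits without the pairing, leaving out single libraries, mostly replicate 2, moved several paired calls by over 1.5 times, among them Boc (-0.11 without DMSO replicate 2, -0.66 without GSK-126 replicate 2), Ndrg1 (0.13 without DMSO replicate 2, 0.94 without DMSO replicate 3) and Gabra6 (-0.61 without DMSO replicate 2). Where a single library was left out, its group held 2. The standard error of the fitted log2 difference ran from 0.070 for Mxd4, the member with the most counts, to 0.19 for Mycn, the member with the fewest.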
